A study of Mus musculus with 8 samples.

Results

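Splenic regulatory T cells (Treg cells) of mice lacking the microRNA cluster miR-181a/b-1 were compared with Treg cells of heterozygous controls on gene expression arrays, to ask which transcripts differ in peripheral Treg cells without the cluster. The comparison rests on 4 of the 8 arrays of the series, 2 arrays of knockout cells (KO) and 2 arrays of heterozygous cells (HET), and the other 4 arrays hold thymic Treg cells, which the design text assigns to the same 4 groups of mice. Members were chosen by the sample titles, and each of 22180 genes with exactly 1 gene symbol was represented by its brightest probe set. Results are given for the 21204 autosomal genes, and genes on chromosomes X and Y enter only as checks of the labels.

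All mice were C57Bl/6J animals of 7 to 12 weeks that carried a green fluorescent protein reporter expressed from the Foxp3 locus. KO mice had both copies of the cluster deleted (miR181-/-), and HET mice had 1 copy deleted (miR181+/-), so the controls carried a deleted copy too and no wild-type array entered the comparison. The sort gate took CD4+CD25+ cells positive for the Foxp3(GFP) reporter, with a purity of 98%. Each array held RNA of pooled animals. Pool HET 1 came from 3 females and 1 male and pool HET 2 from 4 females and 1 male, whereas pools KO 1 and KO 2 each came from 2 females and 1 male. These are the sizes in the submitters' design text, and the paper's description of the arrays gives other pool sizes. With 2 pools per genotype, p-values measure only spread between pools, estimated over spleen and thymus arrays together and moderated across genes.

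MicroRNAs of the miR-181 family lower the output of messenger RNAs that carry a match to their seed, the short stretch near the 5′ end that pairs with the target. In T cells miR-181a is known to raise the sensitivity of the T cell receptor (TCR), in part by lowering phosphatases, and its level is high in double-positive thymocytes and low in mature T cells. Treg cells are a CD4+ lineage defined by the transcription factor Foxp3 that restrains other immune cells and divides in the periphery to hold its number.

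The cluster lies on chromosome 1 (GRCm38.p6, RefSeq), with the hairpin of Mir181a-1 at chr1:137966455-137966541 and that of Mir181b-1 at chr1:137966639-137966718, both on the plus strand and 97 bases apart. The mature 5p sequences of the family are shown because they tell which products the deletion removes and which remain encoded elsewhere. Capitals mark the seed, bases 2 to 8 from the 5′ end.
miR-181a-5p: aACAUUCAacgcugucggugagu
miR-181b-5p: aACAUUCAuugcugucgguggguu
miR-181c-5p: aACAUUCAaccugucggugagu
miR-181d-5p: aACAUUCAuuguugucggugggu
These 4 sequences come from 6 genes and share 1 seed. Mir181a-2 and Mir181b-2 on chromosome 2 encode the same 5p sequences as the deleted pair, and Mir181c and Mir181d on chromosome 8 encode the others. KO cells therefore retained 4 of the 6 genes.

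As a background, 1105 genes of olfactory receptors, which T cells are not known to use, had a 95th percentile of 4.63 on the log2 intensity scale, called the olfactory receptor level here. A gene under it has no measured level, only an upper bound. In spleen 11519 autosomal genes lay above it. Replicate arrays differed by a median of 0.11 (HET) and 0.13 (KO) per gene on the log2 scale, and HET and KO arrays differed from each other by 0.12 to 0.13. Foxp3 was high in all 4 arrays, at 10.96 and 10.94 in HET and 10.86 and 10.79 in KO. All 6 defining Treg markers were above the olfactory receptor level, whereas 0 of 3 NK cell markers, 0 of 2 neutrophil markers and 1 of 4 measured B cell markers were. Of markers of other cells, 3 of 4 for plasma cells, 3 of 5 for myeloid cells, 2 of 4 for stroma and 1 each for dendritic, erythroid, platelet and CD8 T cells were above it too. One check went against the labels. Xist, the RNA of the inactive X chromosome of female cells, was at 3.89 and 3.58 in HET, under the olfactory receptor level, and at 8.93 and 9.05 in KO, although the labels list mostly female mice in every pool. Y-linked Kdm5d was measured in all 4 arrays, at 7.76 and 7.76 in HET and 7.23 and 7.08 in KO. The sex of the donors, as these transcripts show it, and the genotype cannot be told apart in this comparison.

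Between KO and HET splenic Treg cells 0 of 21204 autosomal genes passed an adjusted p of 0.05 (0%) in the limma fit, and 832 had an unadjusted p under 0.05. Over all 22180 genes 1 gene passed (0.00451%), Xist. The smallest adjusted p of an autosomal gene was 0.195. With array weights 5 autosomal genes passed, Als2cl, Dscam, Sh3gl3, Igkv5-43 and Igkv4-70, all with negative differences, and without HET replicate 1 the kappa segment Igkv9-124 passed alone. Igkv9-124 was under the olfactory receptor level in all 4 arrays, so its pass measures no level. Of the 832 genes, 410 were higher in KO (1.93% of autosomal genes) and 422 were lower (1.99%). The median difference, KO minus HET, was 0.003 on the log2 scale, and 95% of genes lay between -0.31 and 0.32. For 99.4% of autosomal genes the 95% confidence interval (CI) of the difference excluded a 2-fold change in either direction. Only 10 genes had a fitted difference over 2-fold, all 10 lower in KO, and 7 of them had a mean over the olfactory receptor level. These 7 were the immunoglobulin kappa segments Igkv4-72, Igkv9-120 and Igkv5-43, the immunoglobulin joining chain Jchain, the inducible chaperone Hspa1b, the receptor gene Lilrb4a and the small nucleolar RNA Snord111. Igkv4-70 and Klk1b27, a kallikrein-related gene, were under that level in all 4 arrays and Hspa1a in both KO arrays and HET replicate 1. Their fitted folds therefore measure no level. Jchain in both KO arrays, Igkv4-72 in KO replicate 1 and Hspa1b in KO replicate 2 were under it too. Igkv9-120 was under it in HET replicate 2 and KO replicate 1. The fitted folds of these genes include values that are only upper bounds. As the background for counts of gene groups, both KO arrays lay above both HET arrays for 18.4% of autosomal genes and below both for 17.6%. Among genes above the olfactory receptor level these shares were 17.7% and 19.1%.

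**Figure D1:**
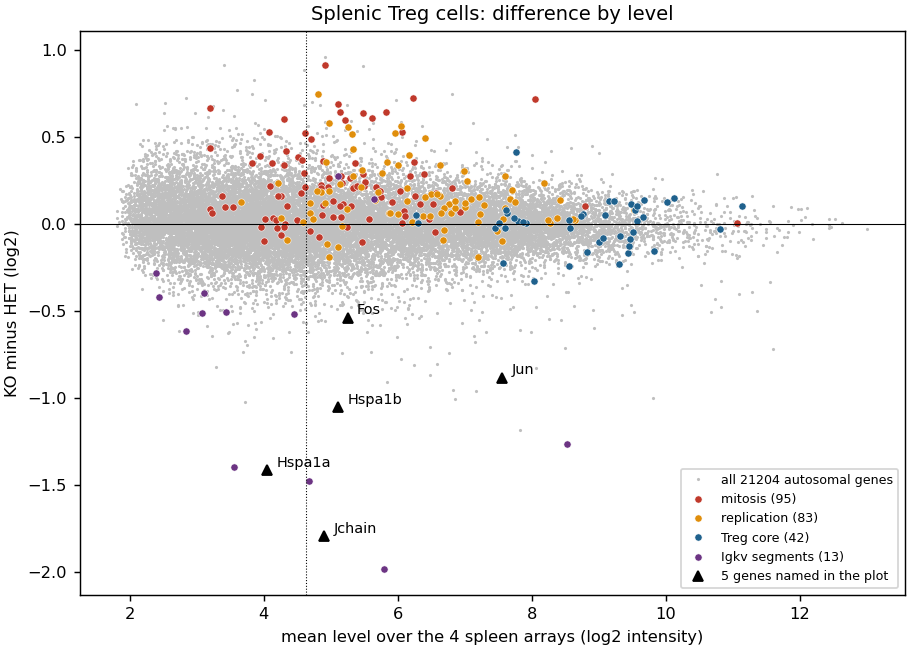
Difference between KO and HET splenic Treg cells (log2, vertical axis) by the mean level over the 4 spleen arrays (log2 intensity, horizontal axis), 1 point per autosomal gene, with 4 gene groups coloured and the olfactory receptor level of 4.63 dotted. Mitosis and replication genes lie mostly above 0, Treg core genes cluster around 0 at high levels, and Jun, Fos, Hspa1a, Hspa1b, Jchain and most Igkv segments lie below 0.

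The genes that define the Treg lineage had near-equal levels in both genotypes. Of 42 measured Treg core genes, 25 had a positive and 17 a negative difference, with a median of 0.02. For 9 of them (21.4%) both KO arrays lay above HET and for 10 (23.8%) below, beside 18.4% and 17.6% of all autosomal genes. Il2ra, which encodes the IL-2 receptor chain CD25 used in the sort, was at 11.08 and 11.10 in HET and at 11.18 and 11.20 in KO, so both KO arrays were marginally higher. Ctla4, which encodes the coinhibitory receptor CTLA-4, was at 9.09 and 9.10 in HET and 9.31 and 9.14 in KO (difference 0.14, CI -0.14 to 0.41). Both KO arrays were higher, and the CI of the difference included 0. Helios, encoded by Ikzf2, was at 9.97 and 9.95 in HET and 10.20 and 9.97 in KO, where the second KO array matched the first HET array. The genes with the lowest p on this list were Socs2, a feedback inhibitor of cytokine signalling (difference 0.41, adjusted p = 1.0 in the limma fit), and Ikzf4, which encodes Eos (-0.24, adjusted p = 1.0). Tigit, an inhibitory receptor of activated Treg cells, was at 8.44 and 7.96 in HET and 7.97 and 7.79 in KO, with overlapping groups. Genes of IL-2 and STAT5 signalling (23 measured, 14 positive, median 0.04) and of CTLA-4 trafficking (38 measured, 23 positive, median 0.01) had medians close to that of all genes, 0.003. In the trafficking group Rab4a, a small GTPase of recycling endosomes, had the lowest p. It was at 5.02 and 5.17 in HET and 5.39 and 5.62 in KO (0.41, adjusted p = 1.0). Rab11a, another gene of recycling endosomes, and Rab5b were lower in both KO arrays, by -0.26 and -0.22. Across the group both KO arrays lay above HET for 12 members (31.6%) and below for 8 (21.1%), beside 18.4% and 17.6% of all autosomal genes.

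The deleted transcripts could not be read on these arrays. Mir181a-1 was at 2.14 and 2.37 in HET and 1.81 and 2.40 in KO, and Mir181b-1 was at 2.60 and 2.31 in HET and 2.44 and 2.29 in KO, all below the olfactory receptor level. Of the retained genes, Mir181a-2, Mir181c and Mir181d had means above it, and Mir181b-2 did not. Mir181a-2 was at 4.52 and 4.92 in HET and 4.58 and 4.74 in KO, with overlapping groups (-0.06, CI -0.59 to 0.47). Mir181c was at 6.70 and 6.60 in HET and 6.22 and 6.37 in KO, and Mir181d was at 7.04 and 6.99 in HET and 6.53 and 6.91 in KO, so these were lower in both KO arrays (-0.36 and -0.29, adjusted p = 1.0 each). Probe sets of these genes read their transcripts, not the mature microRNA. The 10 measured neighbours of the cluster on chromosome 1 differed by -0.14 to 0.35. The upper value belonged to Kif14, a mitotic kinesin, which was under the olfactory receptor level in all 4 arrays.

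Literature targets of miR-181 were examined because miR-181 is known to lower the transcripts that it pairs with. Of 23 measured targets, 10 had a positive and 13 a negative difference, with a median of -0.01. Both KO arrays lay above HET for 1 target (4.35%), Plag1, and below HET for 10 (43.5%), beside 17.7% and 19.1% of genes above the olfactory receptor level. After quantile normalization the second count was 8. Fos, the AP-1 subunit that also counts as a target, had the lowest p and was lower in KO. Ptpn11, which encodes the phosphatase SHP-2, was at 7.91 and 7.81 in HET and 7.58 and 7.67 in KO, so both KO arrays were lower (-0.24, CI -0.57 to 0.09). Ptpn22, a phosphatase that dampens TCR signals, was at 10.06 and 10.13 in HET and 10.05 and 9.96 in KO (-0.09, CI -0.39 to 0.21). Dusp6, a phosphatase of the MAP kinase ERK, was at 8.25 and 7.94 in HET and 7.98 and 7.91 in KO, and its groups overlapped. Bcl2, a survival factor, and Dusp5, an ERK phosphatase of the nucleus, differed by 0.03 each. Over the broader phosphatase group 16 of 29 members were positive, with a median of 0.02. Nr4a1, an immediate reporter of TCR signals, was at 8.58 and 8.54 in HET and 8.55 and 8.64 in KO, and Cd5, whose level follows TCR signal strength, at 10.90 and 10.89 in HET and 10.76 and 10.80 in KO. Of 41 measured genes of proximal TCR signalling, 17 were positive and 24 negative (median -0.02). Both KO arrays were above HET for 10 of them (24.4%) and below for 14 (34.1%), beside 18.4% and 17.6% of all autosomal genes. After quantile normalization 22 were positive (median 0.002) and the count below was 9, and without HET replicate 2 the median was 0.01. Themis, a TCR signalling protein of thymocytes, stood out in this group by its p, with 7.45 and 7.37 in HET and 7.84 and 7.87 in KO (0.44, CI 0.17 to 0.71).

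Genes of mitosis lay higher in KO cells as a group, although 0 of them passed the test alone. In bulk RNA, more cells in division and more of these transcripts per cell cannot be told apart. The mitosis list, like the other gene lists, was chosen with earlier results of these data known. Of 95 measured mitosis genes, 85 had a positive difference and 10 a negative one, and the median was 0.19, beside 0.003 over all autosomal genes. Both KO arrays lay above both HET arrays for 48 members (50.5%) and below for 1 (1.05%), beside 18.4% and 17.6% of all autosomal genes. An unadjusted p under 0.05 was reached by 16 members, all higher in KO. Of the 95 members, 61 had a mean over the olfactory receptor level. Mki67, the gene of the proliferation marker Ki-67, was at 7.92 and 7.46 in HET and 8.61 and 8.21 in KO. Its difference of 0.72 (CI 0.21 to 1.22) left the groups without overlap, and its p did not pass after adjustment (adjusted p = 1.0, limma). Top2a, the topoisomerase that untangles chromosomes, was at 6.18 and 5.57 in HET and 6.82 and 6.38 in KO, the same order of arrays as for Mki67. Prc1, which bundles microtubules of the spindle midzone, was at 4.47 and 4.45 in HET, below the olfactory receptor level, and at 5.58 and 5.16 in KO. Its KO mean was thus at least 0.74 above HET on the log2 scale, or at least 1.67-fold higher. Ncaph, a condensin subunit, was at 4.86 and 4.78 in HET and 5.47 and 5.46 in KO (0.65, CI 0.28 to 1.01, adjusted p = 0.884). Replicates of Ncaph differed by far less than the genotypes did. Ube2c, the ubiquitin-conjugating enzyme that starts the destruction of mitotic cyclins, was at 5.04 and 4.79 in HET and 5.53 and 5.49 in KO. Racgap1, a regulator of cytokinesis, was at 5.82 and 5.79 in HET and 6.39 and 6.28 in KO. For both genes the lower KO array exceeded the higher HET array. Further differences were 0.64 for Kif11, a spindle motor, and 0.69 for Nusap1, a microtubule-associated protein. Members at the other end were few and close to 0, down to -0.10 for Ect2, an exchange factor of cytokinesis.

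The mitosis genes also differed between replicates. Per array, the median level of the group was 5.04 and 4.80 in HET and 5.29 and 5.10 in KO, so HET replicate 1 and KO replicate 2 were the closest pair across genotypes. Without HET replicate 2 the median difference was 0.11, with 69 of 95 members positive, and without KO replicate 1 it was 0.12, with 72 positive. Leaving out HET replicate 1 or KO replicate 2 gave 0.27 and 0.24. With 3 arrays non-overlap is reached more easily. KO then lay above HET for 54.7% to 76.8% of mitosis genes, beside 32.7% to 38.2% of all autosomal genes. In thymus the same 95 genes had a median difference of 0.04, with 61 positive, and 4 members had an unadjusted p under 0.05 for the difference between tissues, beside 764 of all 21204 autosomal genes, which is close to the same share.

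**Figure D2:**
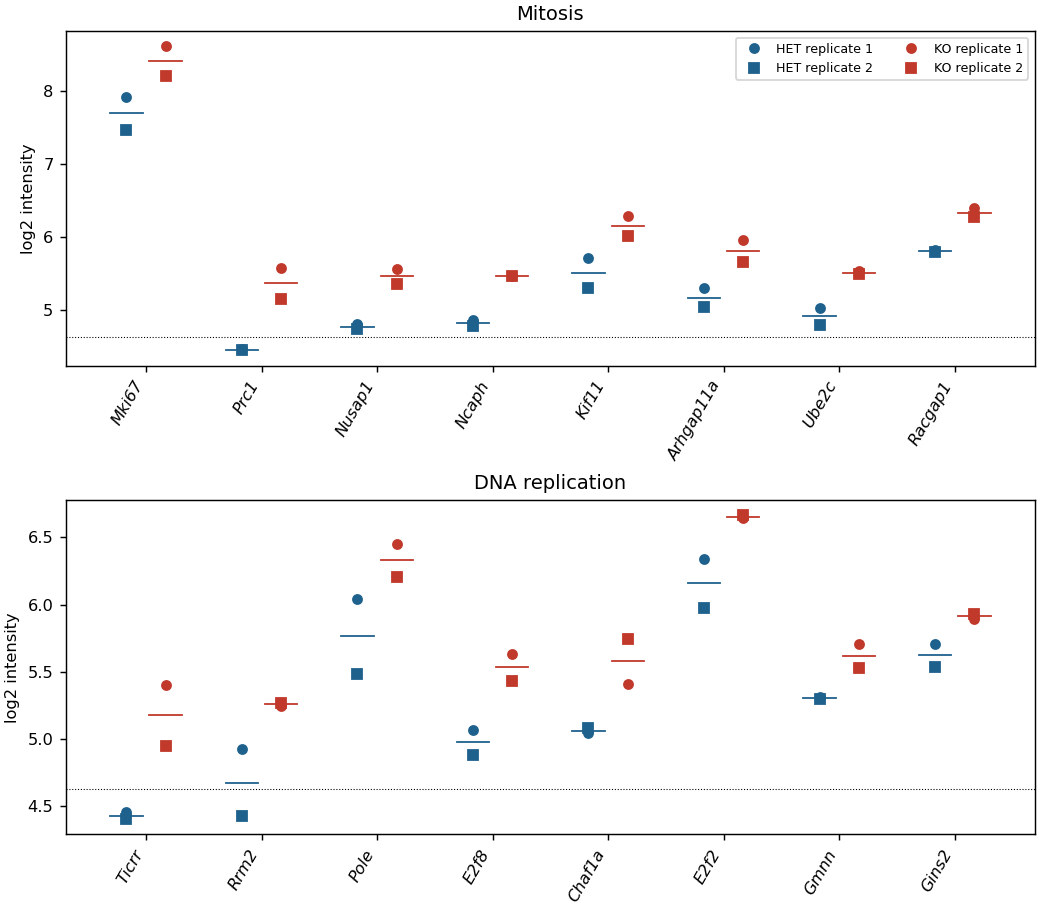
Levels of 8 mitosis genes and 8 DNA replication genes in each of the 4 spleen arrays (log2 intensity, vertical axis), with HET in blue, KO in red, circles for replicate 1, squares for replicate 2, bars for group means and the olfactory receptor level of 4.63 dotted. Both KO arrays lie above both HET arrays for all 16 genes, which were named for their low p, and HET replicate 2 is below HET replicate 1 for most of them.

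Genes of DNA replication showed the same direction with smaller differences. Of 83 measured members, 73 were positive and 10 negative, with a median of 0.12. Both KO arrays lay above HET for 41 (49.4%) and below for 4 (4.82%), beside 18.4% and 17.6% of all autosomal genes. An unadjusted p under 0.05 was reached by 9 members, all higher in KO. Rrm2, the ribonucleotide reductase subunit that limits nucleotide supply, was at 4.93 and 4.43 in HET and 5.25 and 5.27 in KO. Here the spread lay within HET, and the KO arrays were alike. Chaf1a, a histone chaperone of replicating chromatin, was at 5.04 and 5.08 in HET and 5.41 and 5.74 in KO (0.52, CI 0.17 to 0.86). Ticrr, a gene of origin firing, was below the olfactory receptor level in HET and at 5.41 and 4.95 in KO. Its KO mean was thus at least 0.55 above HET on the log2 scale. E2f2 (0.50) and E2f8 (0.56) encode transcription factors of the S phase programme, Pole (0.57) a replicative polymerase subunit, Gins2 (0.29) a part of the replicative helicase and Gmnn (0.31) the licensing inhibitor geminin. The more abundant helicase and clamp genes differed less, with 0.14 for Mcm2, 0.28 for Mcm5 and 0.08 for Pcna. Without any 1 spleen array the median of the group ranged from 0.10 to 0.16. Gene groups that border on division had medians close to that of all genes. Of 24 measured genes of G1 cyclins and growth, 13 were positive (median 0.01), and of 22 cell cycle brakes, such as inhibitors of cyclin-dependent kinases, 12 were positive (median 0.02). Myc, a driver of growth, was at 8.61 and 8.58 in HET and 8.77 and 8.84 in KO (0.21, CI -0.09 to 0.51).

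Promoters of the division genes were read because their members moved together and because many mitotic promoters are known to hold a cell cycle homology region (CHR), which binds the DREAM and MuvB complexes, next to CCAAT boxes bound by NF-Y. Sequences run from 250 bases before to 50 after the start site (RefSeq, GRCm38.p6, first entry per gene), and TTTGAA or TTCGAA for the CHR and CCAAT were searched on both strands. An entry was found for 76 of the 95 mitosis genes and 69 of the 83 replication genes. A CHR match was present in 56 of 76 mitosis promoters (73.7%), in 14 of 69 replication promoters (20.3%) and in 2813 of 16291 promoters of all autosomal genes with an entry (17.3%). For CCAAT the shares were 67.1%, 56.5% and 38.1%, and both motifs were found together in 57.9%, 13% and 6.93%. Mitosis genes with a CHR match had a median difference of 0.20 (56 genes) and those without one 0.21 (20 genes). Both KO arrays lay above HET for 58.9% of the former and 40% of the latter. Over all genes with an entry these shares were 21.5% with a match and 18% without one. The promoters of 4 mitosis genes are shown, 3 with both motifs and Ncaph with neither; capitals mark matches to the CHR and to CCAAT.
Prc1 promoter, chr7:80294201-80294500, plus strand: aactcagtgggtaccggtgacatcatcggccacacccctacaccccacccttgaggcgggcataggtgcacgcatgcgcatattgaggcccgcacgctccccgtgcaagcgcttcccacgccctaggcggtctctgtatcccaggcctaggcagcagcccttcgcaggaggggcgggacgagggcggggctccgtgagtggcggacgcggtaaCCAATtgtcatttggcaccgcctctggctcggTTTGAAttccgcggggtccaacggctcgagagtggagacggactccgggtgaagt
Ube2c promoter, chr2:164769679-164769978, plus strand: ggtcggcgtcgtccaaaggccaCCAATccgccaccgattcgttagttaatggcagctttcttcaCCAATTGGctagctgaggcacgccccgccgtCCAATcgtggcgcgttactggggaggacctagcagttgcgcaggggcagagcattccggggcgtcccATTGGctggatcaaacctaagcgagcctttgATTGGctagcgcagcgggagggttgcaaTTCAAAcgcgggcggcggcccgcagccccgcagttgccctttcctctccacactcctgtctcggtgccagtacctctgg
Mki67 promoter, chr7:135716330-135716629, minus strand: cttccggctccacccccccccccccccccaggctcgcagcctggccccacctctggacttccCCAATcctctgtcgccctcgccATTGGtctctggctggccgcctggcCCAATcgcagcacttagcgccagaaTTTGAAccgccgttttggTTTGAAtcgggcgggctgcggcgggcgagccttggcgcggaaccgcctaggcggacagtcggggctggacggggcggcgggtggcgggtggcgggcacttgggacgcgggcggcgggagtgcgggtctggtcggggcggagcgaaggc
Ncaph promoter, chr2:127133905-127134204, minus strand: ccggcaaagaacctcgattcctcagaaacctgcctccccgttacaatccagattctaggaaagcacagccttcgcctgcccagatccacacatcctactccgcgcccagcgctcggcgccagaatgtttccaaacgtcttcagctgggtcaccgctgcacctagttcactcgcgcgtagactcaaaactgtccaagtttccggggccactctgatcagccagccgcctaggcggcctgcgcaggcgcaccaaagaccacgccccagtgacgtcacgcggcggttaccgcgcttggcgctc
Prc1 held 1 CHR and 1 CCAAT match, Mki67 held 2 and 3, and Ube2c held 1 and 6, of which 1 pair overlaps on opposite strands. A match is a description of the letters, not evidence of binding.

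Jun, the AP-1 subunit induced within minutes of stimulation, was the gene of this kind nearest to the threshold. It was at 7.81 and 8.20 in HET and at 7.22 and 7.02 in KO, so both KO arrays were lower by more than the replicates differed (-0.88, CI -1.21 to -0.55, adjusted p = 0.270, limma). Fos, its partner, was at 5.51 and 5.54 in HET and 4.94 and 5.04 in KO (-0.54, adjusted p = 0.884), and Junb was at 8.10 and 8.25 in HET and 7.86 and 7.87 in KO (-0.31, adjusted p = 1.0). All 3 were lower in both KO arrays. The wider group of immediate early genes was mixed. Of 47 measured members, 22 were positive and 25 negative with a median of -0.02. Both KO arrays lay above HET for 8 (17%) and below for 14 (29.8%), beside 18.4% and 17.6% of all autosomal genes. An unadjusted p under 0.05 was reached by 4 lower members, Jun, Fos, Junb and the transcription factor Klf4 (-0.29), and by 1 higher member. That was the nuclear receptor gene Nr4a2, at 6.03 and 5.82 in HET and 6.31 and 6.19 in KO. Fosb (-0.02), Egr2 (-0.15), Egr3 (-0.17) and Ier2 (0.01) were closer to 0 than Jun and Fos, and Dusp4 was higher in both KO arrays (0.36). In thymus Fos differed in the other direction (0.30) and Jun by -0.18. For Fos the test of the difference between tissues had an unadjusted p of 0.00106 and an adjusted p of 1.0 (limma).

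The stress-inducible chaperones of the HSP70 family were low in KO. Hspa1b was at 5.44 and 5.84 in HET and 4.89 and 4.29 in KO (-1.05, CI -1.78 to -0.33, adjusted p = 1.0). Its near-identical neighbour Hspa1a was at 4.43 and 5.09 in HET and 3.21 and 3.49 in KO. Both KO values and the value of HET replicate 1 of Hspa1a lay under the olfactory receptor level, so no size of its difference can be stated. KO replicate 2 of Hspa1b lay under that level too, and the fitted difference of Hspa1b includes this value. The probe sets may not tell the pair apart. Dnajb1, a cochaperone of HSP70, was at 7.46 and 7.65 in HET and 7.14 and 7.26 in KO, and Hsp90aa1, the inducible HSP90, at 8.07 and 8.12 in HET and 7.89 and 7.69 in KO. Both were lower in both KO arrays, by -0.36 and -0.30. Over the 49 measured chaperone genes 16 were positive and 33 negative (median -0.05). Yet both KO arrays lay above HET for 11 and below for 11 (22.4% each), beside 18.4% and 17.6% of all autosomal genes. Some constitutive members were near 0, such as Hspa8 (-0.03), Hspa5 of the endoplasmic reticulum (-0.08) and mitochondrial Hspd1 (-0.06). Among other chaperone genes Hspe1 was lower in both KO arrays (-0.167), and Hspa9 (0.133) and Cct3 (0.185) were higher in both. Without KO replicate 2 the median was -0.01.

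The promoters of Jun and Hspa1b are shown with the element each is known for, and capitals mark TGACNTCA in Jun (a CRE-like AP-1 element) and GAANNTTC in Hspa1b (a heat shock element), searched on both strands.
Jun promoter, chr4:95052173-95052472, minus strand: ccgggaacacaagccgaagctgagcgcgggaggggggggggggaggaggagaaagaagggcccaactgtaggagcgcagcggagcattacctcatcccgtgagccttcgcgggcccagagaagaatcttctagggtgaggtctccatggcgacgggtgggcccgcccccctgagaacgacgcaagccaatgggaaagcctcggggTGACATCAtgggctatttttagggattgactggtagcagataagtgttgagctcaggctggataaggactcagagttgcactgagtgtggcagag
Hspa1b promoter, chr17:34959189-34959488, minus strand: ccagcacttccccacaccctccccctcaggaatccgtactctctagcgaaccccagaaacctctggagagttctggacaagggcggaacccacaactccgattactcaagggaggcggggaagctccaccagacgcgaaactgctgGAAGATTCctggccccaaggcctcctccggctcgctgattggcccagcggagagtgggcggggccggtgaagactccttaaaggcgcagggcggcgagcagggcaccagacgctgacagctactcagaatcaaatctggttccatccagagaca
TGACNTCA was found in 8.24% of all promoters and in 6 of 38 immediate early promoters (15.8%), and GAANNTTC in 7.05% of all and in 10 of 43 chaperone promoters (23.3%).

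**Figure D3:**
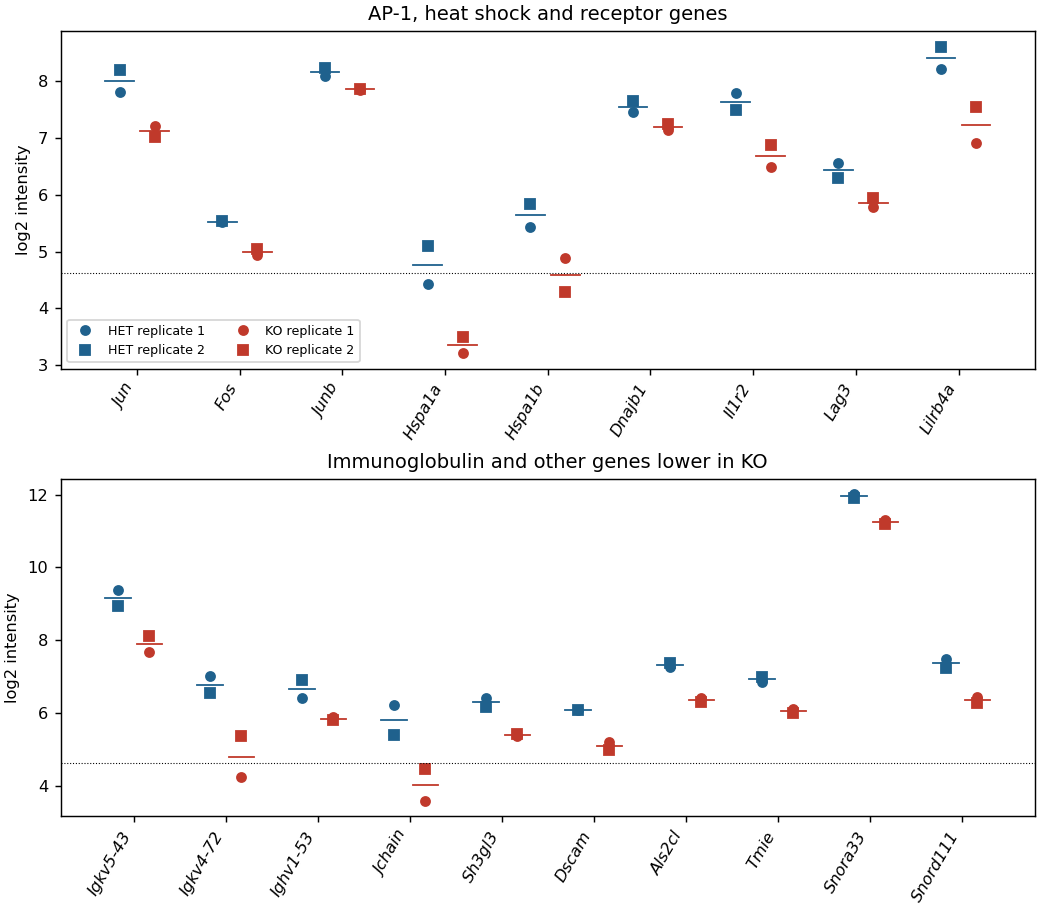
Levels of 9 stress, AP-1 and receptor genes and of 10 immunoglobulin and other genes in each spleen array (log2 intensity, vertical axis), with HET in blue, KO in red, circles for replicate 1, squares for replicate 2, bars for group means and the olfactory receptor level of 4.63 dotted. Both KO arrays lie below both HET arrays for all 19 genes, which were selected for their low p or size. Jchain and Hspa1a are under the dotted line in both KO arrays, Igkv4-72 in KO replicate 1 and Hspa1b in KO replicate 2.

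Several genes of immature or recently formed T cells were higher in both KO arrays, while the group as a whole was mixed. Of 25 measured members, 17 were positive (median 0.06), and 5 had an unadjusted p under 0.05 and were higher. Both KO arrays lay above HET for 7 (28%) and below for 5 (20%), beside 18.4% and 17.6% of all autosomal genes. Myb, a transcription factor of thymocyte progenitors, was at 7.495 and 7.504 in HET and 8.001 and 8.023 in KO (0.51, CI 0.23 to 0.80, adjusted p = 0.884). Ccr9, a chemokine receptor for thymus and gut, was at 4.89 and 5.14 in HET and 5.57 and 5.64 in KO (0.59, adjusted p = 0.610), and Ccr4, a receptor for skin and thymic medulla, at 6.93 and 6.75 in HET and 7.36 and 7.47 in KO (0.58, adjusted p = 1.0). Replicates of Myb were nearly equal, and no value of these genes overlapped between genotypes. Il17rb, a receptor chain for IL-25, was at 4.89 and 4.98 in HET and 5.49 and 5.58 in KO (0.60, adjusted p = 0.492). In thymus Ccr4 and Il17rb differed in the other direction, by -0.46 and -0.10, whereas Myb (0.325) and Ccr9 (0.29) were higher in KO there too. Other early transcription factors differed in both directions in spleen, with Lef1 at -0.07, Satb1 at -0.02, Tox at 0.06, Bcl11b at -0.11 and Patz1 at -0.19. Sox4 was at 6.10 and 5.23 in HET and 6.17 and 6.08 in KO (0.46, CI -0.16 to 1.07), and its groups overlapped through the spread within HET. Of 21 measured markers of double-positive thymocytes, 15 were positive (median 0.04), and of 35 genes of naive and resting T cells 17 were (median -0.02). Tet1, which oxidises methylated cytosine, was at 5.81 and 5.83 in HET and 6.29 and 6.35 in KO (0.50, adjusted p = 0.821). Ryr2, a calcium release channel, was at 5.56 and 5.69 in HET and 6.39 and 6.29 in KO (0.71, adjusted p = 0.495), with a thymic difference of 0.67. Drc1, a regulator of ciliary dynein, differed by 0.68. The gene of lowest p that was higher in KO was Mir103-2, which encodes a microRNA, at 4.79 and 5.27 in HET and 6.07 and 5.81 in KO (0.91, adjusted p = 0.405). Of the other genes of low p, Spopfm2, Vmn2r55 and Adh1 were under the olfactory receptor level in HET, and Klrb1f, a lectin-like receptor gene of natural killer cells, differed by 0.47.

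Effector genes of Treg cells had small differences in spleen. Of 53 measured members, 33 were positive and 20 negative, with a median of 0.05. For 16 members (30.2%) both KO arrays lay above HET and for 10 (18.9%) below, beside 18.4% and 17.6% of all autosomal genes. Without HET replicate 2 the median was 0.003. At the upper end were S100a6, a calcium-binding protein (0.46), Lgals1, which encodes galectin-1 (0.45), and Ccr2, a receptor for inflamed tissue that was below the olfactory receptor level in HET. At the lower end were the inhibitory receptors Lilrb4a and Lag3. Lilrb4a was at 8.22 and 8.62 in HET and 6.91 and 7.55 in KO (-1.18, CI -1.83 to -0.54, adjusted p = 0.884), and Lag3 was at 6.57 and 6.30 in HET and 5.78 and 5.94 in KO (-0.57, adjusted p = 1.0). Neither overlapped between genotypes. Epas1, a hypoxia-responsive transcription factor, was also lower (-0.46). Klrg1, Icos, Pdcd1, Gata3, Itgae and Ccr8 all lay within 0.10 of 0.

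In thymus the same effector genes were lower in KO, with 7 of 53 positive and a median of -0.22, beside 0.05 in spleen. The test of the spleen difference minus the thymus difference passed for 0 of 21204 autosomal genes (0%, limma), with 764 at an unadjusted p under 0.05 and a smallest adjusted p of 1.0. Of the effector genes 13 had an unadjusted p under 0.05 in that test. Klrg1, a marker of terminally differentiated cells, had differences of 0.06 (spleen) and -0.87 (thymus). Cxcr6, a receptor of tissue-resident cells, differed by 0.23 and -0.78, and Maf, a transcription factor of effector Treg cells, by 0.12 and -0.52. For Tigit the differences were -0.32 and -1.34, and for Lilrb4a they were -1.18 and -2.02, negative in both tissues. Spleen and thymus arrays of one number come from the same group of mice by that design, and their spread was estimated together.

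**Figure D4:**
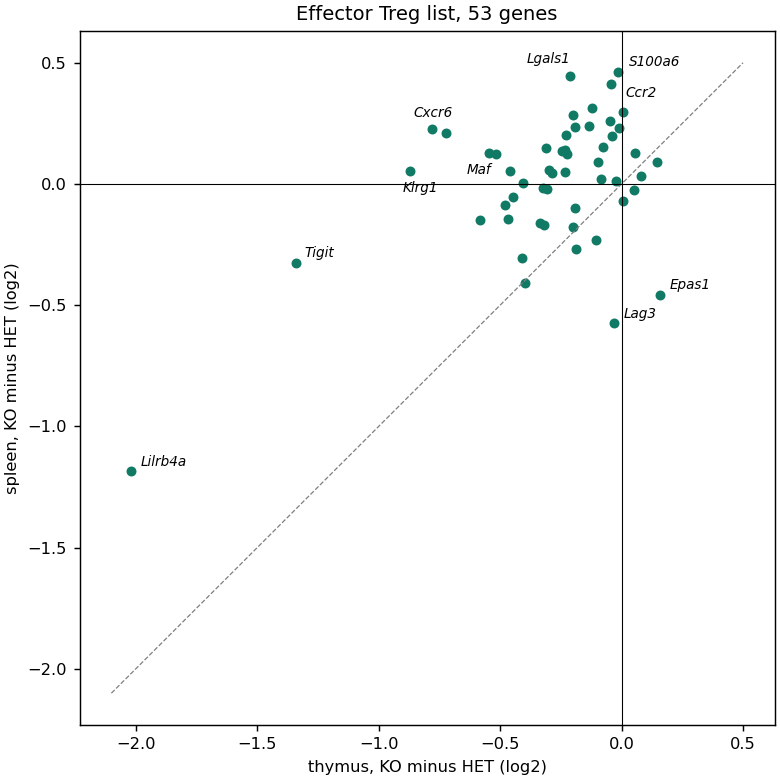
Difference between KO and HET for the 53 effector Treg genes in spleen (log2, vertical axis) and thymus (log2, horizontal axis), 1 point per gene, with equal differences on the dashed line. Most genes lie above the line, near 0 in spleen and below 0 in thymus, and Lilrb4a and Tigit are negative in both tissues.

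Several immunoglobulin transcripts, products of B lineage cells, were lower in both KO arrays, and others were not. Igkv5-43, a kappa variable segment, was at 9.37 and 8.93 in HET and 7.68 and 8.11 in KO (-1.26, CI -1.68 to -0.85, adjusted p = 0.195), the smallest adjusted p of the comparison, shared with Igkv4-70, which was under the olfactory receptor level in all 4 arrays. Igkv4-72 was at 7.01 and 6.55 in HET and 4.24 and 5.36 in KO, where replicate 1 lay under that level. The heavy chain segment Ighv1-53 was at 6.42 and 6.89 in HET and 5.88 and 5.80 in KO (-0.81, adjusted p = 0.405). Jchain was at 6.22 and 5.39 in HET and 3.58 and 4.44 in KO, the latter under the olfactory receptor level, so it was at least 1.18 lower on the log2 scale, or at least 2.26-fold. For each of these genes the HET arrays were both above the KO arrays. Across 13 measured kappa segments, 11 had a negative difference (median -0.51). Both KO arrays lay below HET for 5 (38.5%) and above for 1 (7.69%), beside 17.6% and 18.4% of all autosomal genes. The median ranged from -0.28 without KO replicate 1 to -0.87 without HET replicate 2. Only 5 segments were above the olfactory receptor level, and 2 of these 5 had positive differences, 0.14 and 0.28, the latter with both KO arrays above HET. Igkv9-120 varied more within genotypes, at 6.92 and 3.89 in HET and 2.33 and 5.54 in KO. Segments of one family are near-identical in sequence, so their probe sets may share signal. Ighm, the constant region of IgM, was at 11.02 and 10.97 in HET and 10.65 and 10.68 in KO (-0.33). Other markers of the lineage differed less or in the other direction. Of the plasma cell markers Sdc1 differed by 0.23, Xbp1 by 0.16 and Mzb1 by -0.09, and Tnfrsf17 was under the olfactory receptor level. The summed intensity of the 4 defining plasma cell markers was 114 to 151 in HET and 90.4 to 96.1 in KO, which includes Jchain, and that of the 4 measured B cell markers was 119 to 124 in HET and 142 to 148 in KO. Ms4a1, Cd79a and Pax5 were under the olfactory receptor level in spleen, and the part of B lineage RNA in other results was not tested.

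Several of the lowest p-values belonged to genes of unrelated roles. Sh3gl3, which encodes endophilin A3, was at 6.41 and 6.16 in HET and 5.35 and 5.41 in KO (-0.91, adjusted p = 0.218), and Dscam, a neuronal adhesion molecule, at 6.09 and 6.09 in HET and 5.21 and 4.99 in KO (-0.99, adjusted p = 0.218). Als2cl and Tmie, neighbouring genes on chromosome 9, were at 7.25 and 7.36 and at 6.85 and 6.99 in HET, and at 6.40 and 6.31 and at 6.12 and 5.99 in KO (-0.95 and -0.86). These 4 genes were lower in thymic KO cells too, by -0.61, -0.54, -0.78 and -0.44. Abcb1a, a drug efflux pump, was at 8.33 and 8.27 in HET and 7.75 and 7.61 in KO (-0.62, adjusted p = 0.821), and differed by -0.81 in thymus. Il1r2, the decoy receptor of IL-1, was at 7.80 and 7.49 in HET and 6.50 and 6.88 in KO (-0.96, adjusted p = 0.492). Gadd45gip1, a mitochondrial ribosome factor, differed by -0.52. In all genes given here by array the HET replicates were closer to each other than to either KO array.

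Small nucleolar RNAs, which guide the modification of ribosomal RNA, were among the lower genes of low p. Snora33 was at 12.01 and 11.92 in HET and 11.29 and 11.20 in KO (-0.72, adjusted p = 0.405), and Snord1b and Snord111 differed by -0.80 and -1.01. The whole family was then counted, a choice made after these values were seen. Of 70 measured members, 46 had a negative difference (median -0.13). Both KO arrays lay below HET for 31 (44.3%) and above for 4 (5.71%), beside 17.6% and 18.4% of all autosomal genes. Per array, the median level of the family was 7.51 and 7.44 in HET and 7.42 and 7.27 in KO. HET replicate 2 and KO replicate 1 were thus close, and the family median was not computed with an array left out. Messenger RNAs of ribosomal proteins, several of which host such RNAs in their introns, were level, with 36 of 60 positive and a median of 0.02.

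Gimap genes, GTPases of lymphocyte survival that lie together on chromosome 6, were lower by small amounts. Of 8 members, 7 were negative (median -0.17). Both KO arrays lay below HET for 6 (75%), beside 19.1% of genes above the olfactory receptor level. In thymus the median of these 8 members was -0.235, with 1 positive. In spleen Gimap7 was at 8.15 and 8.11 in HET and 7.88 and 7.89 in KO (-0.24, adjusted p = 1.0). Its replicates differed by less than the genotypes. NF-kappa-B genes had 13 of 20 members negative (median -0.08), with Relb at 7.54 and 7.49 in HET and 7.28 and 7.29 in KO. Among 18 interferon-inducible GTPases 9 were negative. The 3 with an unadjusted p under 0.05 and a lower level in KO all lie on chromosome 18. They were F830016B08Rik (-0.78), Gm4841 (-0.68) and Gm4951 (-0.64), with thymic differences of -0.75, -1.11 and -0.64. At the same threshold 1 member was higher in KO, Gbp2b (0.45). Type I interferon genes (40 measured, 22 positive, median 0.01), glycolysis (28, 11 positive, -0.05), cholesterol synthesis (28, 14 positive, -0.01) and the respiratory chain (66, 36 positive, 0.01) had medians near that of all genes. Of 22 measured markers of myeloid cells 15 were positive (median 0.03), and 4 had an unadjusted p under 0.05 and were higher in KO, among them Ly6c2 (0.43) and Ccr2, against 1 that was lower.

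**Figure D5:**
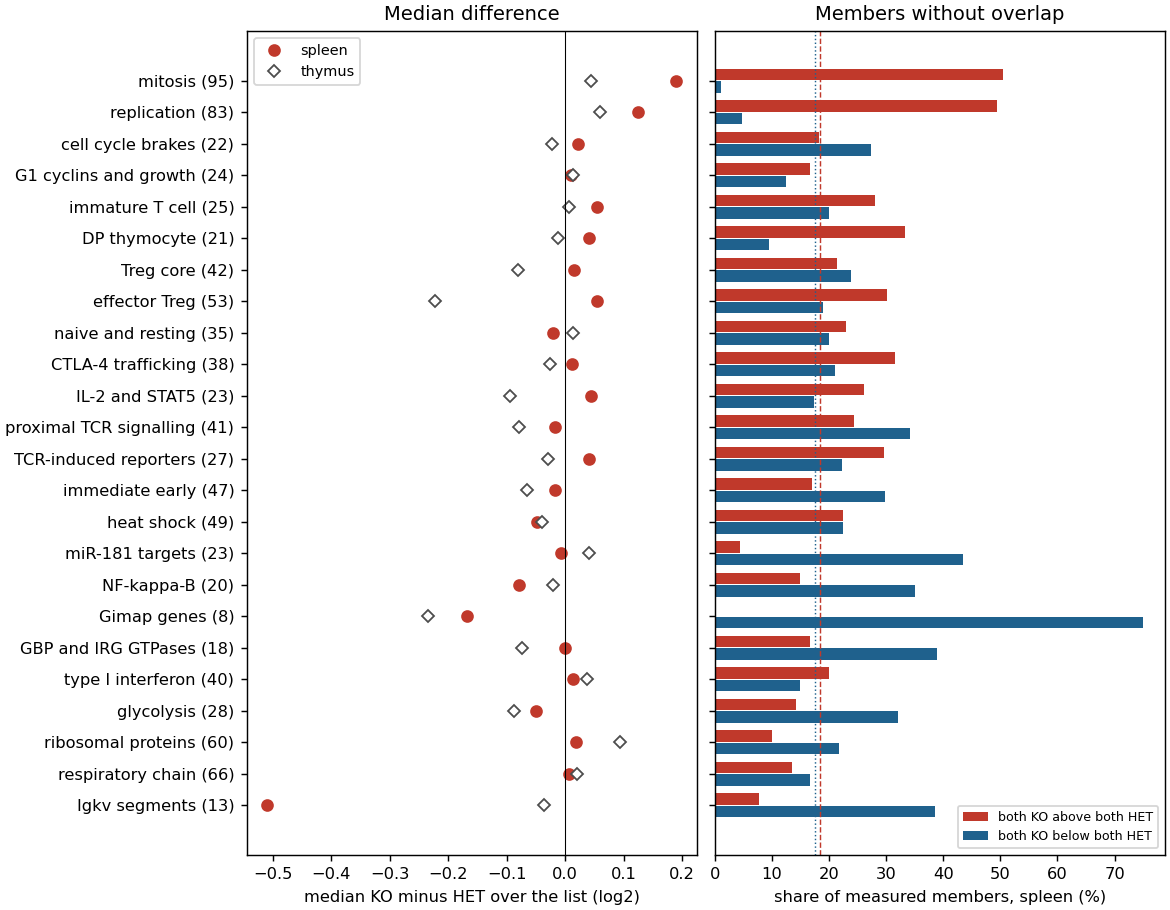
Gene groups in KO and HET Treg cells, with the number of measured members in brackets. On the left, the median difference of each group (log2) is shown for spleen (filled) and thymus (open); on the right, bars give the share of members whose KO arrays both lie above (red) or both lie below (blue) the HET arrays in spleen, with the shares over all autosomal genes, 18.4% and 17.6%, as dashed and dotted lines. Mitosis and replication have the highest spleen medians (0.19 and 0.12), Igkv segments the lowest (-0.51), and effector Treg genes have a median of 0.05 in spleen and -0.22 in thymus.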

How the data were processed

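The deposited values are log2 intensities, 1 per probe set and array, which the authors made from Affymetrix arrays. The submitters' notes name the package oligo; its version, the background correction and the normalization are not given in the sources used here. The array design named in the study's methods differs from that of the probe set identifiers in the files, which decided the annotation. Array medians lay between 4.58 and 4.70, and no further normalization was applied. Of 41345 probe sets, 23521 carried 1 symbol, 1820 carried several and 16004 were not listed; for 1082 genes with several probe sets the brightest, by its mean across the 8 arrays, was kept. Chromosomes came from RefSeq (GRCm38.p6), and 54 genes without an assigned autosome or sex chromosome stayed in the fit only. Arrays have no depth, and their number limits the precision.

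The 4 group means were fitted jointly to the 8 arrays in limma 3.58.1 (R 4.3.3), which left 4 residual degrees of freedom, moderated with eBayes. P-values are two-sided and adjusted by Benjamini-Hochberg over all 22180 genes, at a threshold of 0.05. Fits were tested on simulated data. Bounds ("at least") set the group under the olfactory receptor level to that level. Alternatives were quantile normalization, another filter, the mean of probe sets, array weights, trended and robust eBayes, spleen arrays alone, pool as a random block, replicate number as a block and each array left out. Gene groups were described by counts and medians beside those of all genes, with no group test. Members, lists and alternatives were chosen with earlier results of these data known. The text names the 12 higher and 12 lower genes of lowest p above the olfactory receptor level, leaving out predicted genes, olfactory receptors and immunoglobulin and T cell receptor segments, list members of lowest p, transcripts of prior interest, neighbours of the deletion, and further members as examples that were chosen after their values were seen.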

Additional observations from a re-analysis of the deposited data

How the results depend on the processing

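The count of 0 autosomal genes past the threshold was the same with only genes over the olfactory receptor level, quantile normalization, a trended and robust prior, the mean of probe sets, every probe set tested alone, the 4 spleen arrays alone and mouse pool as a random block. It was 5 with limma arrayWeights (1411 genes at an unadjusted p under 0.05), and 0 to 1 without any 1 spleen array. The cause of these shifts was not tested. With the replicate block the count was 0 as well, with 972 genes at an unadjusted p under 0.05 in place of 832, and it changed no call. With the 4 spleen arrays alone, 1324 genes had an unadjusted p under 0.05. Differences between replicates 1 and 2 correlated at -0.05 between HET and KO in spleen and at 0.21 in thymus, so the shared numbers were not taken to pair the arrays. The test of spleen against thymus gave 0 genes under every alternative run. The median of the heat shock genes was between -0.046 and -0.007 without any 1 spleen array. Among 125 named genes with 1485 values under alternatives, 1440 values had the sign of the full data and its side of the threshold, 6 passed the threshold and 39 turned sign. With 1 spleen array left out, the difference turned sign within the ranges -0.098 to 0.154 for Bcl2, -0.002 to 0.186 for Ccr8, -0.081 to 0.052 for Cd79a, -0.049 to 0.099 for Dusp5, -0.308 to 0.004 for Dusp6, -0.301 to 0.099 for Ect2 and -0.143 to 0.108 for Fosb. The same held for -0.022 to 0.05 for Gata3, -0.055 to 0.003 for Hspa8, -0.144 to 0.018 for Hspd1, -0.038 to 0.063 for Ier2, -3.076 to 0.127 for Igkv9-120, -1.593 to 0.361 for Igkv9-124 and -0.116 to 0.072 for Itgae. The same held for -0.061 to 0.172 for Klrg1, -0.442 to 0.149 for Mir181a-1, -0.263 to 0.144 for Mir181a-2, -0.23 to 0.059 for Mir181b-1, -0.154 to 0.015 for Mir181b-2, -0.012 to 0.079 for Nr4a1 and -0.092 to 0.252 for Pcna. The same held for -0.156 to 0.047 for Pdcd1, -0.069 to 0.027 for Satb1, -0.099 to 0.06 for Tnfrsf17 and -0.014 to 0.125 for Tox. With the mean of the probe sets of a gene, the sign turned for Bcl2 (-0.055), Dusp6 (0.014) and Maf (-0.021). After quantile normalization it turned for Hspa8 (0.058). The number of arrays limits the precision: the 95% CI of a difference had a median half-width of 0.31 on the log2 scale.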
